A study of Mus musculus with 55 samples.

Results

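The first 15 min of a potassium depolarization were followed in mature neurons. The values come from 3′ RNA sequencing of 2 cultures given KCl for 15 min and 3 basal cultures, chosen by their group labels, which makes 5 of the 27 samples of the stimuli experiment and of the 55 samples of the series. All 5 were primary forebrain cultures of cortex and hippocampus from CD1 mouse embryos of mixed sex. They were kept in Neurobasal-A with B27 and are labelled 21DIV (days in vitro). The study uses that name for a range of ages up to 23DIV. KCl was added to the growth medium to 55 mM and left on until the RNA was taken, with no silencing beforehand. Basal cultures went through the same handling without the KCl. Cultures of this kind hold glia beside the neurons, and forebrain is a mixture of excitatory and inhibitory cells. The labels do not say whether the replicates were separate cell preparations, so the spread between samples may in part be technical. For the stimuli experiment the p-values below rest on the spread within groups over all 27 samples, not on these 5 alone.

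High extracellular potassium depolarizes the membrane without the need for synaptic input, opens voltage-gated calcium channels and activates calcium-dependent kinases. These switch on immediate early genes (IEGs), which need no new protein. The best known IEGs encode transcription factors of the FOS and JUN (AP-1), EGR and NR4A families, and effectors that act at the synapse such as Arc. A later wave of secreted and synaptic proteins is thought to follow from the first. The libraries count 3′ ends of polyadenylated RNA, so an RNA begun after the stimulus is counted only once the polymerase has crossed the whole gene.

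The 5 libraries held from 2600680 to 3474375 counts on genes and from 16320 to 18049 genes with a count. Between 19.1% and 19.4% of all transcript counts fell on identifiers that matched no gene and were not used. Within a group the log2 CPM (counts scaled to a common library total) of the libraries correlated across genes with r from 0.971 to 0.977, and between groups with r from 0.951 to 0.964. No pair of libraries agreed within sampling noise, since the chi-square per degree of freedom was 2.68 to 3.72 within groups and 6.38 to 11.1 between them. Library codes in the labels carry a letter, which was B for both KCl samples and for basal replicate 5, and A for basal replicates 1 and 2. The sample called basal replicate 5 here is numbered 5 in its title and 2 in its description. Neuronal markers were abundant in all 5, with a summed level of 12 marker genes of 6480 to 6821 CPM in basal and 7321 to 7985 CPM in KCl cultures.

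The promoters of the 5 largest rises for which RefSeq gave a sequence are shown. These genes rank 3, 4, 5, 6 and 8 among the largest rises, and were chosen for rising, so their common direction is no separate result. Each runs from 250 bases before to 50 bases after the annotated start of transcription (RefSeq, GRCm38.p6, all on the plus strand, 300 bases). Capitals mark matches, on either strand, to motifs found in many activity-regulated promoters: the cyclic AMP response element (CRE) TGACGTCA, its shorter core TGACG, which lies within it, the AP-1 site TGAGTCA or TGACTCA, the TATA box TATAAA, and the serum response factor site known as the CArG box. Fndc9 lies at chr11:46235307-46235606, Abhd2 at chr7:79273016-79273315, Inhba at chr13:16011601-16011900, Acan at chr7:79052976-79053275 and Rprml at chr11:103649259-103649558.
Fndc9: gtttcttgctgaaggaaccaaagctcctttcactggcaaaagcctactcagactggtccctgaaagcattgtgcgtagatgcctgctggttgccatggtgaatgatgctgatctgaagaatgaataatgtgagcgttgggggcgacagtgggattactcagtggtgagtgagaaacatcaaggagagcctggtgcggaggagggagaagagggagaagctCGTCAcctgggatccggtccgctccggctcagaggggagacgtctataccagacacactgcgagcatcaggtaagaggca
Abhd2: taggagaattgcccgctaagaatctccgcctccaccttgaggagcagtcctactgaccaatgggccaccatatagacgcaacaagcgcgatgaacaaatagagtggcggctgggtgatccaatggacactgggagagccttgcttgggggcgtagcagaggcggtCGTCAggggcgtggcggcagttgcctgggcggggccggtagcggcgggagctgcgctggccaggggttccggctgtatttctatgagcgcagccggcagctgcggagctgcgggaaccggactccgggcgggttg
Inhba: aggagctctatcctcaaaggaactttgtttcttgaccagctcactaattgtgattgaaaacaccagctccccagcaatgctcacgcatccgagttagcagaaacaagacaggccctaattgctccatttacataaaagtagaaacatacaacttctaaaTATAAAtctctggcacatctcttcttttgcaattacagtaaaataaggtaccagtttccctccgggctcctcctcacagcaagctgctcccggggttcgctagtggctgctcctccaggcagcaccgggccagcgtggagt
Acan: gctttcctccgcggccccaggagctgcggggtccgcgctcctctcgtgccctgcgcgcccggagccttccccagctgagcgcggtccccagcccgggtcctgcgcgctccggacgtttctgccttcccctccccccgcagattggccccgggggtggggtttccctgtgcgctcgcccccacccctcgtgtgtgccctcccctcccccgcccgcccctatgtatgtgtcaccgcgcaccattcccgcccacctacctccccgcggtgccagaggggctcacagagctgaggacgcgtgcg
Rprml: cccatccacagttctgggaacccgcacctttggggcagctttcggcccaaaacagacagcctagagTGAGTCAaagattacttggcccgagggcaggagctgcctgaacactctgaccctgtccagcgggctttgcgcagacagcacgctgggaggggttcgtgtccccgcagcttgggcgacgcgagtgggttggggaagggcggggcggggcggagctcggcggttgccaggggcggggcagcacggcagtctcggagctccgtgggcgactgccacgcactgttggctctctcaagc
The Fndc9 and Abhd2 windows each held a single CRE core, read on the opposite strand, whose first base lay 30 and 85 bases before the start. Inhba held a TATA box 91 bases before the start and Rprml an AP-1 site 184 bases before it. No letters of these motifs were found in the Acan window.

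Of 409 rises with a promoter sequence, 3.67% held a CRE, against 3.50% of the 9598 promoters of genes tested and 1.88% of all 27025. The shorter core was in 29.1% of the rises and 32.7% of the genes tested, and the AP-1 site in 2.44% and 3.13%. The TATA box was in 10.3% of the rises and 6.83% of the genes tested, and the CArG box in 2.93% and 1.26%. Among 264 falls the shares were 2.27% for the CRE, 29.9% for its core, 3.41% for AP-1, 7.58% for TATA and 2.65% for the CArG box. Of the 50 promoters of genes that rose in both KCl experiments of the series, described last, 48% held the shorter core, 20% TATA, 8% AP-1, 4% the CRE and none (0 of 50) the CArG box. A match is a description of the letters only.

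At 15 min of KCl 545 genes were higher and 324 lower than in basal cultures, among the 12023 tested. The background of called genes was thus 7.23%, made up of 4.53% higher and 2.69% lower. A gene was called when edgeR's quasi-likelihood test gave a Benjamini-Hochberg adjusted p below 0.05 and the change was at least 1.5-fold. The changes were mostly modest, with a median fold of 1.89 for rises and 1.80 for falls. Of the rises 230 reached 2-fold, 38 reached 4-fold and 11 reached 8-fold, and of the falls 14 reached 4-fold and 4 reached 8-fold. The median log2 fold change of all genes was -0.01. The 2 KCl samples lay outside the range of the 3 basal samples in 865 of the 869 calls, and in 40.4% of all genes tested. Protein-coding genes made up 96.3% of rises, 96.9% of falls and 95.7% of genes tested.

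Without KCl replicate 2 the call count was 361 (304 higher, 57 lower), and without KCl replicate 1 it was 626. With the library code letter as a term in the fit it was 606 (382 higher, 224 lower), of which 479 were among the 869. The only basal sample with the letter of the KCl samples is replicate 5, so a comparison within that letter has 1 basal library. A set of 229 genes, 201 of them higher, was called in every fit that left out 1 library. The number of these 5 fits that called a gene is given below for each named gene called in 2 or fewer of them.

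**Figure D1:**
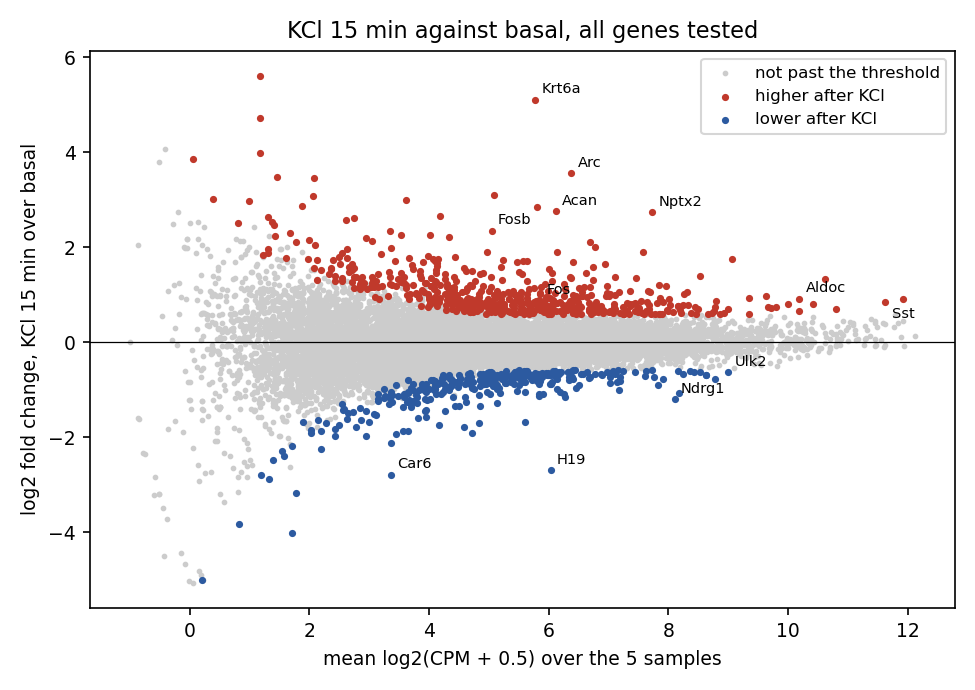
Each point is a gene tested, with its mean level over the 5 samples on the horizontal axis and its log2 fold change at 15 min of KCl over basal on the vertical axis. Levels are log2(CPM + 0.5), rises are red and falls blue. Krt6a at 5.11 and Car6 at -2.79 are the largest rise and fall among the genes ranked in the text. Ranked genes averaged at least 3 in log2 CPM and had no overlap between the groups. Some called genes outside that set rose or fell by more.

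Among genes with an average of at least 3 on the log2 CPM scale and with no overlap between the groups, which are the ones ranked here, the largest rise was not that of a classical IEG. Krt6a (chr15:101689928-101694305, GRCm38) encodes a keratin of stressed epithelia. It stood at 10.9, 16.8 and 11.8 CPM in the basal samples and at 435 and 464 CPM after KCl. The log2 fold change was 5.11 ± 0.27 (SE), or 34.4-fold, with an adjusted p of 3.64e-17 by edgeR's quasi-likelihood test. The 2 KCl values were close to each other and far above every basal value. How reads shared with close keratin paralogues were assigned is not given in the sources used here, so the value may hold reads of a relative.

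Arc, which drives the removal of AMPA receptors from the synapse, came next (chr15:74669081-74672570). Its basal values were 25.5, 35.7 and 32.2 CPM and its KCl values 325 and 399.5 CPM. The log2 fold change was 3.55 ± 0.17 (SE, adjusted p 5.88e-18), and the groups were widely apart.

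Genes for secreted and matrix proteins were among the largest rises. Inhba encodes a subunit of activin, a growth factor induced by synaptic activity, and stood at 20.9, 36.9 and 19.3 CPM in basal and 193 and 176 CPM in KCl samples, a log2 fold change of 2.85 ± 0.23 (SE, adjusted p 1.39e-11). Acan encodes aggrecan, the core proteoglycan of perineuronal nets, with 26.1, 52.1 and 22.8 CPM against 230.5 and 221 CPM and a log2 fold change of 2.75 ± 0.22 (adjusted p 1.39e-11). Nptx2 (chr5:144545887-144557478) encodes a neuronal pentraxin that clusters AMPA receptors, with 78.3, 146.7 and 80.8 CPM against 684 and 675 CPM and a log2 fold change of 2.74 ± 0.21 (adjusted p 3.51e-12). In all 3 genes basal replicate 2 was the highest basal sample, and it was still far below either KCl value.

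The other large rises included Fndc9. Fndc9, whose protein has a fibronectin type III domain, went from 12.04, 26.8 and 7.21 CPM to 133.7 and 127.6 CPM (log2 fold change 3.10 ± 0.26). Abhd2, a lipid hydrolase, went from 5.73, 3.72 and 5.69 to 43.1 and 38.7 CPM (2.99 ± 0.33) and Rprml, named as a relative of the cell cycle inhibitor Reprimo, from 8.03, 11.5 and 6.07 to 62.2 and 45.8 CPM (2.65 ± 0.28). The ammonium transporter gene Rhcg, with a log2 fold change of 2.25 ± 0.29, and the locus-named genes Gm31740 (2.35 ± 0.34) and 6530402F18Rik (2.26 ± 0.30) complete the 12 largest rises together with Fosb. Each of the 12 was called in all 5 fits without a library.

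**Figure D2:**
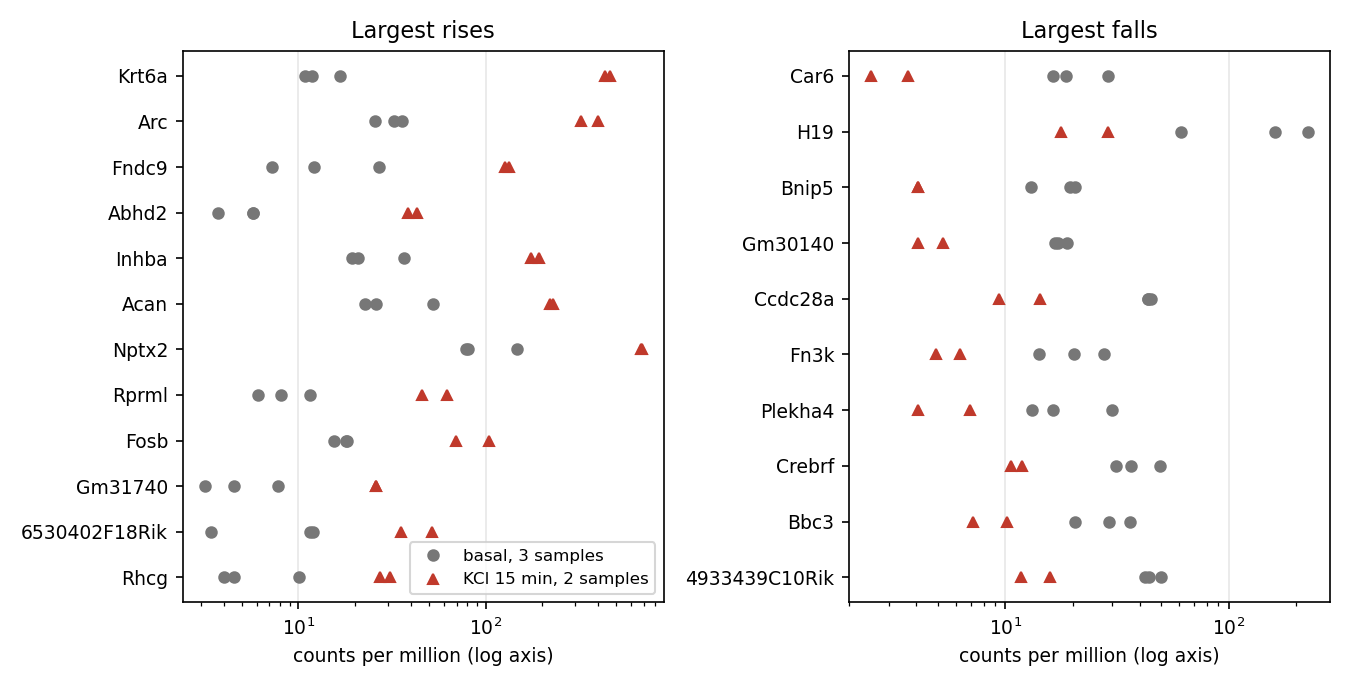
CPM on a log axis of the 12 largest rises and 10 largest falls, with grey circles for the 3 basal and red triangles for the 2 KCl 15 min samples. Genes were chosen to have no overlap between the groups, and the distance between them is widest for Krt6a, as also seen for Arc at 325 and 399.5 CPM over 25.5 to 35.7.

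The largest falls were in genes of diverse known functions. Car6, a secreted carbonic anhydrase, went from 18.6, 16.4 and 28.8 CPM to 3.66 and 2.495 CPM, a log2 fold change of -2.79 ± 0.49 (SE, adjusted p 1.51e-04). The imprinted noncoding RNA H19 varied widely among basal samples, at 61.1, 226 and 162 CPM, and stood at 28.9 and 17.8 CPM after KCl (-2.69 ± 0.61). Its fall was called in 4 of the 5 fits that left out a library. Bbc3, which encodes the pro-apoptotic protein PUMA, fell from 29.2, 20.5 and 36.03 to 10.2 and 7.17 CPM (-1.74 ± 0.30). Crebrf, a regulator of the CREB3 stress pathway, fell from 36.4, 31.3 and 49.3 to 10.6 and 11.9 CPM (-1.78 ± 0.25) and Ccdc28a from 43.6, 45.1 and 43.6 to 14.2 and 9.36 CPM (-1.92 ± 0.23). As for the rises, only genes whose groups did not overlap were ranked. Fn3k, which repairs glycated proteins, changed by -1.87, Bnip5 by -2.11, Plekha4 by -1.86, Gm30140 by -1.92 and 4933439C10Rik by -1.69 on the log2 scale.

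Most of the tested AP-1 genes rose. Of 11 listed genes 8 passed the filter on low counts, 5 rose and none fell, against a background of 4.53% of genes called higher, and the median log2 fold change of the 8 was 0.84. The number called was 2 without KCl replicate 2, and 3 with the library letter as a term or with counts summed over transcripts. The largest was Fosb, with 15.5, 17.9 and 18.2 CPM in basal and 69.5 and 104 CPM in KCl samples, a log2 fold change of 2.35 ± 0.22 (SE) and an adjusted p of 7.62e-10. Fosl2 rose by 1.31 ± 0.18, the stress-induced Atf3 by 0.95 ± 0.19 and Junb by 0.81. Fos itself rose less, from 37.6, 48.0 and 51.2 CPM to 82.1 and 83.9 CPM, a log2 fold change of 0.87 ± 0.21 (adjusted p 0.00472). Jun did not pass the test, at 329, 322 and 402 CPM in basal and 385 and 431 CPM in KCl samples with overlapping ranges (0.22 ± 0.15, adjusted p 0.405), and neither did Jdp2 (0.10 ± 0.23).

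In the EGR and NR4A families 8 of 9 genes were tested, 3 rose and none fell, with a median log2 fold change of 0.58, and 1 was called without KCl replicate 2. Egr3 rose most, from 13.2, 11.5 and 7.21 CPM to 48.4 and 52.7 CPM (2.22 ± 0.28, adjusted p 4.77e-07). The orphan nuclear receptor genes Nr4a1 and Nr4a2 rose by 1.19 ± 0.22 and 1.38 ± 0.30. Egr1, the most used marker of the family, had 70.0, 76.3 and 62.6 CPM against 95.5 and 112.6 CPM, values that did not overlap but missed the threshold (0.58 ± 0.20, adjusted p 0.0554). Nr4a3 passed the p threshold at 0.00398 with a change of 0.55 ± 0.13, below 1.5-fold.

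Among 24 tested genes for other activity-regulated transcription factors, of 26 listed, 10 rose and none fell (median 0.56). The number called was 5 without KCl replicate 2 and 6 without KCl replicate 1 or basal replicate 1. Npas4, which responds selectively to calcium entry, rose from 81.4, 67.4 and 58.02 CPM to 205 and 208 CPM (1.57 ± 0.15, adjusted p 1.18e-09). Nfil3 rose by 1.54 ± 0.18 and the clock gene Per2 by 1.35 ± 0.28. Klf5, Klf10, Ier5, Csrnp1, Srf, Crem and Sertad1 (2 of 5 fits) rose by between 0.69 and 1.23. Klf9 (0.35 ± 0.18) and Mafg (-0.10 ± 0.12) were the most abundant members that did not pass.

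Of 17 tested genes for IEG effectors at the synapse, of 18 listed, 8 rose and none fell (median 0.96). Ptgs2, the inducible cyclooxygenase, rose from 54.2, 79.3 and 43.2 CPM to 232 and 274 CPM (2.10 ± 0.23, adjusted p 2.07e-08). Arhgef3, an exchange factor for small GTPases, rose by 1.47 ± 0.18, and the small GTPase genes Rheb, Rasl11a, Rasl11b and Rnd3 (1 of 5 fits) by 1.17, 1.24, 0.96 and 1.30. Homer1, the postsynaptic scaffold whose short form is activity-induced, stood at 180.1, 193 and 200.2 CPM against 246 and 303 CPM, which passed the p threshold (0.0124) but not 1.5-fold (0.52 ± 0.14). The counts do not separate its short and long forms.

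Genes for secreted and synaptic proteins that are usually placed in the later wave were already higher. Of 19 tested, of 20 listed, 12 rose and none fell, with a median of 1.03. Beside Inhba, Acan and Nptx2 these were Nptx1 (1.46), the prohormone convertase gene Pcsk1 (1.45), Grasp (1.46), Gpr3 (1.16), Nrn1 (1.03), the neurotrophin gene Bdnf (0.97), Penk (0.91), the neurofilament gene Nefm (1.64) and Timp1. Timp1 was at the limit of detection, with 0.287, 1.12 and 0.379 CPM in basal and 6.10 and 3.74 CPM in KCl samples (2 of 5 fits). The abundant neuropeptide genes Sst and Vgf did not pass, with log2 fold changes of 0.38 ± 0.17 and -0.07 ± 0.17.

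Feedback inhibitors of MAP kinase signalling, 15 tested of 16 listed, gave 7 rises and no fall (median 0.65), and 4 were called without KCl replicate 1, KCl replicate 2 or basal replicate 1. Dusp6, a phosphatase that switches off ERK, rose from 80.9, 87.5 and 70.2 CPM to 156 and 162 CPM (0.999 ± 0.17, adjusted p 7.37e-05). Dusp4 (1.17 ± 0.29), Spry2 (0.92 ± 0.19), Spred2 (0.84 ± 0.21), Spred3 (0.74), Spred1 (0.70) and Dusp1 (0.65) followed. Dusp8 and Dusp2 gave 0.05 ± 0.13 and -0.36 ± 0.40 and did not pass.

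Growth arrest and survival genes were mixed, with 3 rises and 1 fall of 11 tested, of 15 listed (median 0.48). The number called was 1 without KCl replicate 2 and 2 without KCl replicate 1, basal replicate 1 or basal replicate 5. Gadd45g rose from 61.6, 76.7 and 52.3 CPM to 220.3 and 289 CPM (2.004 ± 0.18, adjusted p 4.80e-10), Trib1 by 1.10 ± 0.30 and Cdkn1a by 0.61 ± 0.17 (called in 1 of the 5 fits without a library). Ppp1r15a, which encodes the eIF2α phosphatase subunit GADD34 of the stress response, fell from 64.8, 60.3 and 52.3 CPM to 29.7 and 36.5 CPM (-0.83 ± 0.21, adjusted p 0.00868). Its 2 KCl values lay below all basal values, and it was called in 2 of the 5 fits.

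Of the 12 genes that the study drew individually 9 rose and none fell (median 1.10). They were picked from these samples, so the count is not independent evidence. Beside genes named above, AU023762 stood at 1.72, 2.23 and 0.379 CPM in basal and 9.76 and 12.2 CPM in KCl samples (2.86 ± 0.57). Btg2 did not pass (-0.10 ± 0.21).

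The shares of called genes for the machinery that carries the signal lay near the background of 4.53% higher and 2.69% lower. Among 35 tested genes of calcium and CREB signalling, of 37 listed, 2 rose and none fell (median 0.18). These were Sik2, a kinase that restrains CREB coactivators (1.14 ± 0.16), and Camk4, a nuclear calcium kinase (0.68 ± 0.15). Among 24 tested voltage-gated calcium and sodium channel genes, of 25 listed, Cacna1e rose (0.77 ± 0.19) and Cacnb2 fell (-1.01 ± 0.29, called in 1 of the 5 fits without a library), with a median of -0.02. Among 30 tested glutamate and GABA receptor genes, of 32 listed, the NMDA receptor genes Grin2c (1.29 ± 0.38, 2 of 5 fits) and Grin3a (0.82 ± 0.19) rose and none fell (median 0.04). No receptor gene was called without KCl replicate 2, and 4 genes of calcium and CREB signalling were called without basal replicate 1. The abundant Gria2 gave -0.01 ± 0.19.

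Potassium channel and pump genes gave 6 rises and no fall of 35 tested, of 38 listed, with a median of 0.28, and 2 were called without KCl replicate 2. Kcnj10, the inward rectifier that in brain is chiefly an astrocyte channel, rose from 58.8, 75.6 and 39.4 CPM to 154 and 144.4 CPM (1.36 ± 0.24, adjusted p 1.51e-04). Kcnh3 rose by 1.04 ± 0.25, Kcnn2 by 0.79 ± 0.21, Kcna4 by 0.75 and Kcnk1 by 0.67. Atp1b1, a sodium pump subunit, passed the p threshold with 0.33 ± 0.11.

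Some autophagy genes fell and none rose. This list was added after the values had been seen. Of 37 listed genes 35 were tested, 8 fell and none rose, against 2.69% of genes called lower, and the median was -0.28. The number called was 4 without KCl replicate 2 and 5 without KCl replicate 1, basal replicate 1 or basal replicate 5. Wdr45, which acts in membrane expansion of the autophagosome, fell from 28.4, 25.3 and 31.1 CPM to 10.6 and 9.98 CPM (-1.46 ± 0.25, adjusted p 9.27e-05). Genes of the initiating kinase complex fell too, with log2 fold changes of -0.90 ± 0.16 for Atg13, -0.68 for Ulk1 and -0.63 ± 0.13 for Ulk2. The lipid kinase gene Pik3c3 (-0.88 ± 0.28), the lipid transfer gene Atg2b (-0.72 ± 0.19), the receptor gene Calcoco1 (-1.02 ± 0.23) and Tecpr1 (-0.72) made up the 8. Pik3c3 lost its call in each of the 5 fits that left out a library. Map1lc3b, for the ubiquitin-like protein that coats autophagosomes, passed the p threshold (0.00542) with -0.46 ± 0.11, and its relative Gabarap did not (-0.04 ± 0.12).

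The study named 9 genes as lowered, linked to degradation apart from the chromatin regulator gene Hdac11. Of these 8 were tested, 6 fell and none rose (median -0.77). The number called was 2 without basal replicate 1 and 3 without either KCl replicate. The study chose them on these samples, and 3 of the 6 are autophagy genes already given. The others were Derl3 of endoplasmic reticulum degradation (-1.98 ± 0.50, at 10.9, 5.96 and 8.72 CPM against 3.25 and 1.25 CPM), the ligase gene Ufl1 (-1.004 ± 0.28, 2 of 5 fits) and the deacetylase gene Hdac11 (-0.83 ± 0.19). Prss36 (-0.71 ± 0.31) and Stbd1 (-0.92 ± 0.40) did not pass.

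No gene for mRNA decay factors was called of 16 tested, of 19 listed (median -0.04), and Cnot7 gave -0.24 ± 0.13. Nor was any of 29 tested genes for cytosolic ribosomal proteins, of 42 listed (median -0.05), where Rpl4 gave -0.14 ± 0.11 and Rpl23 -0.12 ± 0.13. Of 20 genes for zinc finger repressors and other short-lived transcripts (median -0.13), the repressor gene Bcl6 rose (0.85 ± 0.25). Bcl6 was called in 2 of the 5 fits without a library. The clock output gene Dbp (-1.27 ± 0.32) and the clock gene Nr1d2 (-0.68 ± 0.15) fell. Of 13 tested heat shock chaperone genes, of 16 listed, only Hsph1 passed (0.74 ± 0.13, median 0.11), while the abundant Hsp90ab1 gave 0.04 ± 0.11.

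Other neuronal gene groups held called genes as well, in lists added after the values had been seen. For these lists and the cell type markers below, the share over all genes tested was 4.53% called higher and 2.69% lower. Of 21 tested neuropeptide receptor genes, of 35 listed, 7 rose and 1 fell (median 0.27). The number called was 2 without KCl replicate 2 or basal replicate 1 and 5 without basal replicate 5. The somatostatin receptor gene Sstr2 rose from 18.3, 20.5 and 15.9 CPM to 61.8 and 74.5 CPM (1.90 ± 0.24, adjusted p 8.76e-07), and Sstr3, Hcrtr2, Mchr1, Cckbr and Trhr by 1.55, 1.38, 1.56, 1.18 and 1.14. Tacr3 was called at 1.73 ± 0.52 (2 of 5 fits) although basal replicate 5, at 8.34 CPM, lay close to the lower KCl value of 8.94 CPM. The orexin receptor gene Hcrtr1 fell, on very few counts, from 7.17, 4.10 and 3.03 CPM to 0.813 and 0.936 CPM (2 of 5 fits).

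Of 17 neurofilament and tubulin genes, all tested, 7 rose and none fell (median 0.44). Nefm rose from 82.6, 98.3 and 55.7 CPM to 216 and 277 CPM (1.64 ± 0.19, adjusted p 6.49e-08) and Nefl from 279.5, 286 and 199.9 to 583 and 759 CPM (1.39 ± 0.16). The tubulin genes Tuba4a (0.82 ± 0.15), Tubb5 (0.74 ± 0.13), Tubb3 (0.73 ± 0.17), Tuba1b (0.69) and Tubb4a (0.60) rose by less. Tubulin genes are closely alike in sequence, so reads may be split between them.

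Genes for perineuronal nets and neural matrix gave 6 rises and 1 fall of 16 tested, of 23 listed (median 0.53), and 4 were called without KCl replicate 2. After Acan came the tenascin genes Tnn, from 8.60, 11.9 and 11.8 CPM to 41.9 and 30.3 CPM (1.75 ± 0.29), and Tnc, from 6.59, 18.99 and 7.96 to 42.3 and 30.3 CPM (1.71 ± 0.30). Vcan rose by 1.26 ± 0.36 (2 of 5 fits), Adamts1 by 0.79 and Bcan by 0.78, while the membrane protease gene Mmp24 fell by 0.68 on the log2 scale. Cspg5 (0.47 ± 0.13) and Ptprz1 (0.54 ± 0.16) stayed below 1.5-fold.

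Several glial markers were higher in the KCl cultures. All 12 astrocyte markers were tested, 5 rose and none fell (median 0.54), and their summed level was 2667 to 3246 CPM in basal and 4571 to 4584 CPM in KCl samples. Gfap, the astrocyte intermediate filament, stood at 102, 195 and 83.1 CPM against 367 and 281 CPM (1.35 ± 0.22), and the glutamate transporter gene Slc1a2 at 990.3, 1050.5 and 882 CPM against 1515 and 1540.5 CPM (0.65 ± 0.14). Aldoc (0.92 ± 0.14), Aqp4 (0.71 ± 0.20) and Slc25a18 (2.19 ± 0.62, 2 of 5 fits) were the other rises, whereas Sox9 gave 0.14 ± 0.16 and Gja1 0.14 ± 0.30. In bulk RNA, more cells of a type and more RNA per cell cannot be told apart. The summed level of the same markers was 4312 to 4680 CPM at 15 min of bicuculline, 4223 to 4278 CPM at 45 min of KCl and 3534 to 3544 CPM at 180 min of KCl, all above basal. Kcnj10 moved with these markers, and the part of glial content in its rise was not tested.

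Oligodendrocyte precursor markers gave 3 rises of 5 (median 0.77), Olig1 at 1.06 ± 0.19, Olig2 at 0.80 ± 0.16 and Pdgfra at 0.77 ± 0.18, with a summed level of 711 to 1142 CPM in basal and 1235 to 1335 CPM in KCl samples. Of 7 progenitor and dividing-cell markers 3 rose (median 0.86). The 7 summed to 388 to 466 CPM in basal and 539 to 543 CPM in KCl samples. The cell cycle gene Mki67 led, from 10.03, 11.5 and 8.34 CPM to 35.8 and 32.1 CPM (1.76 ± 0.29). Top2a (1.38 ± 0.29) and Nes (0.86 ± 0.24) were the other rises. Cdk1 (0.87 ± 0.30), Sox2 (0.28 ± 0.13), Pax6 (0.27 ± 0.28) and Hes5 (-0.57 ± 0.23) did not pass. Of 8 oligodendrocyte markers 5 were tested and 1 rose, with sums of 119.8 to 128.2 CPM against 159 to 193 CPM and Mobp at 0 in all 5 samples. Of 12 neuron markers Tubb3 and Slc17a7 (0.59 ± 0.16) rose and none fell (median 0.33). Of 10 microglial markers 2 were tested and neither was called, with sums of 7.48 to 9.29 CPM in basal and 7.69 to 11.3 CPM in KCl samples, and C1qb, Tyrobp and Itgam were at 0 throughout. The vessel and fibroblast lists had 1 tested gene each, Rgs5 (0.62 ± 0.33) and Dcn (0.45 ± 0.28), which did not pass, and the choroid plexus list had none. Whether these differences in cell content bear on the rises above was not tested.

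Rises included long genes. The median distance from the first to the last annotated base was 32.9 kb for the 545 rises, 22.02 kb for the falls and 25.5 kb for all genes tested. Genes over 100 kb made up 22.6% of rises, 11.7% of falls and 15.9% of all genes tested. The 12 largest rises were compact, with a median span of 7.74 kb, as were the 63 genes that rose in both experiments described below, with 19.4 kb. Without KCl replicate 2 the median span of the rises was 26.6 kb, and without KCl replicate 1 it was 39.5 kb. The exonic length of the representative transcript had medians of 3.44 kb for rises, 2.86 kb for falls and 3.16 kb for all genes.

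The response to bicuculline, which blocks GABA-A receptors and so raises synaptic firing, was compared directly with that to KCl at 15 min. The 2 bicuculline cultures (50 μM) shared the library letter B with the KCl cultures. No gene of 12023 passed the edgeR test between the stimuli, a background of 0%. An unadjusted p below 0.05 was found for 552 genes. That is a share below the 0.05 that this cut passes when no gene differs. DESeq2 called 1 gene, the likelihood ratio test 7, and a fit with no filter on low counts 20. This does not show that the stimuli act alike. Arc stood at 364 and 243 CPM after bicuculline, and its log2 difference (KCl minus bicuculline) was 0.24 ± 0.17 (SE, adjusted p 1). Krt6a stood at 204 and 217 CPM (1.10 ± 0.25), Fosb at 70.4 and 51.3 CPM (0.48 ± 0.23) and Acan at 147.5 and 130.6 CPM (0.69 ± 0.23). None of these differences passed the test.

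Several of the strongest rises were smaller after 45 min of KCl, in cultures that also carry the library letter B. Of 12023 genes 45 were higher at 15 min and 5 lower, a background of 0.416% (0.374% higher, 0.0416% lower). Krt6a stood at 46.7 and 42.4 CPM at 45 min, a log2 difference (15 min minus 45 min) of 3.33 ± 0.28 (SE, adjusted p 1.99e-10). Fndc9 differed by 2.07 ± 0.28, 6530402F18Rik by 1.88 ± 0.33 and Arc, at 81.2 and 108 CPM, by 1.94 ± 0.18. Lower at 15 min were Car12, a membrane carbonic anhydrase (-1.34 ± 0.26), the methyltransferase gene Smyd3 (-1.02 ± 0.23), the AMP kinase subunit gene Prkab2 (-0.84 ± 0.20) and Ndrg1 (-0.77 ± 0.18). All 4 had fallen at 15 min from basal. The count of 50 fell to 11 without KCl 15 min replicate 2, to 6 without KCl 45 min replicate 1 and to 21 without KCl 45 min replicate 2.

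The comparison with 180 min of KCl gave more differences. Of 12023 genes 255 were higher at 15 min and 191 lower (3.71% in all, 2.12% and 1.59%). Both 180 min libraries carry the letter A and both 15 min libraries the letter B, and with the letter as a term in the fit, an alternative chosen after seeing the data, 157 were called. Leaving out KCl 15 min replicate 1 gave 188, KCl 15 min replicate 2 gave 173 and KCl 180 min replicate 2 gave 119, and KCl 180 min replicate 1 gave a count between the last 2. Krt6a had come down to 39.6 and 15.5 CPM (15 min minus 180 min, 4.10 ± 0.32), Fndc9 to 15.4 and 15.5 CPM (3.08 ± 0.33), Acan to 35.5 and 39.04 CPM (2.59 ± 0.27) and Inhba to 31.5 and 31.6 CPM (2.55 ± 0.28). The interferon-inducible gene Ifi202b, one of a family of close paralogues, differed by 2.74 ± 0.48. Arc stood at 92.9 and 90.1 CPM (1.99 ± 0.19).

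Other genes were lower at 15 min than at 180 min. The nuclear receptor gene Nr4a2 had 14.2 and 27.1 CPM at 15 min and 42.8 and 43.6 CPM at 180 min (-1.04 ± 0.30, adjusted p 0.0404). Klf4 had 3.25 and 8.11 CPM against 20.2 and 31.6 CPM (-2.15 ± 0.43), Ppp1r15a 29.7 and 36.5 CPM against 127.7 and 114.8 CPM (-1.86 ± 0.23), the clock gene Ciart 15.04 and 12.8 CPM against 36.4 and 76.4 CPM (-2.06 ± 0.41) and the relaxin receptor gene Rxfp1 3.25 and 5.61 CPM against 18.6 and 16.1 CPM (-1.91 ± 0.46). Of these Klf4, Ciart and Rxfp1 had not been called at 15 min. The differences of Fosb, at 99.4 and 68.9 CPM at 180 min (0.07 ± 0.23), and of Fos, at 115.5 and 122 CPM (-0.52 ± 0.23), did not pass the test.

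**Figure D3:**
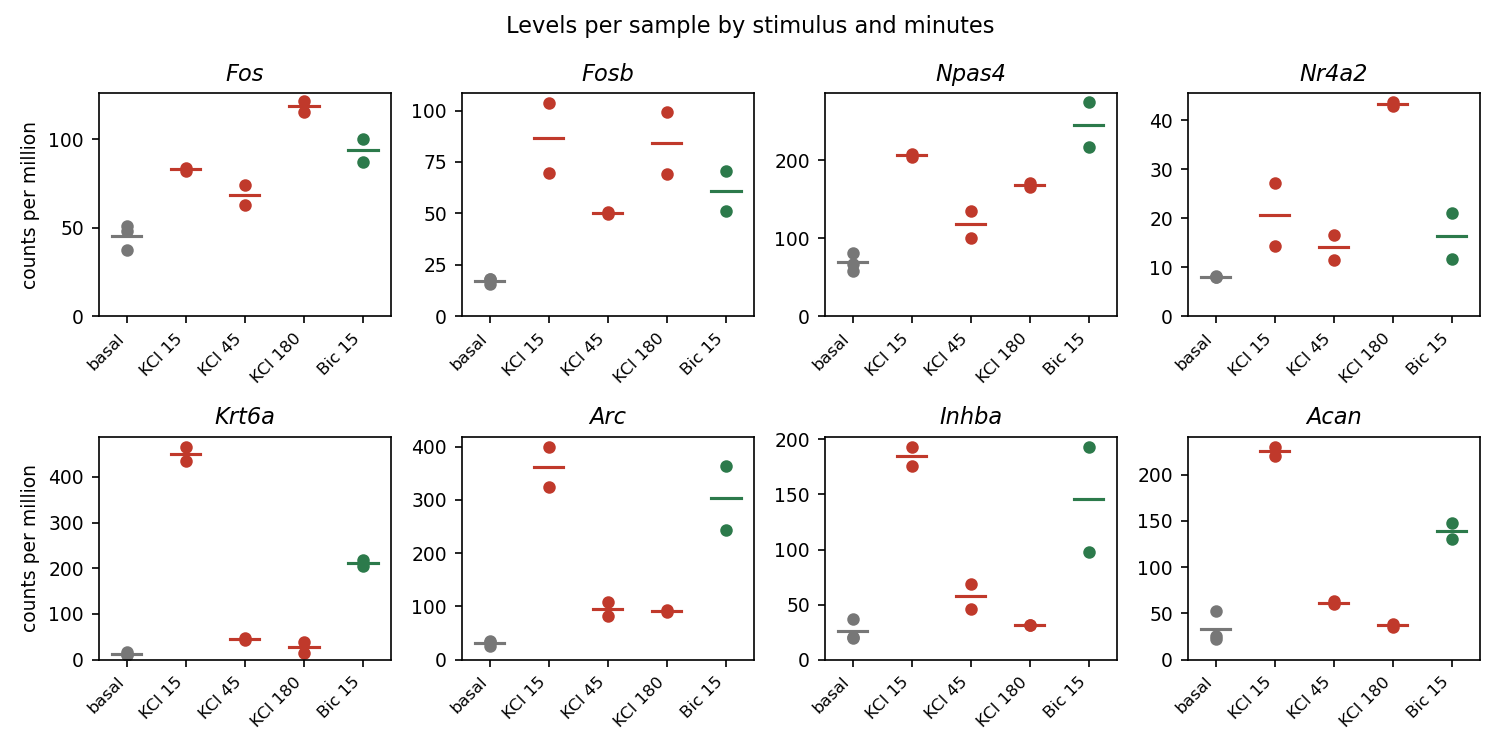
CPM of 8 genes in basal, KCl 15, 45 and 180 min and bicuculline 15 min cultures, 1 point per sample with a bar at the group mean. Among the KCl times Krt6a, Arc, Inhba and Acan are highest at 15 min, as for Krt6a at 435 and 464 CPM, whereas Nr4a2 is highest at 180 min.

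The same stimulus was given for 15 min in the maturation experiment, to cultures labelled 23DIV. Its 3 KCl and 3 basal samples are not shared with the stimuli experiment. These libraries held 4029434 to 14008626 counts on genes. There 376 genes rose and 353 fell of 11742 tested (6.21% in all, 3.2% and 3.01%). The count was 1100 without basal replicate 1, 287 without basal replicate 2, 365 without basal replicate 3 and 447 without KCl replicate 1. Falls outnumbered rises there without basal replicate 1 (576 against 524), basal replicate 2 (159 of 287), basal replicate 3 (188 against 177), KCl replicate 2 (282 against 274) or KCl replicate 3 (424 against 346). Of 11285 genes tested in both experiments, 846 were called in the stimuli and 719 in the maturation experiment, and 73 were called in the same direction, 63 higher and 10 lower. That is 8.63% of the stimuli list and 10.2% of the maturation list. A further 60 were called in opposite directions, or 7.09% and 8.34%, 29 of them higher and 31 lower in the stimuli experiment. Of the 846 stimuli calls 48.5% had the same sign in both experiments, against 47.3% of all genes. The sign was the same for 54.6% of the rises and 38.2% of the falls. Of 529 stimuli rises 63 were called higher there, against 369 of all 11285 genes. Of 317 stimuli falls 10 were called lower there, against 350 of all 11285 genes, and 31 were called higher.

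Of the 25 largest rises 10 were called higher in the maturation experiment and 2 lower, and of the 100 largest 25 and 5. Of the 25 largest falls none was called lower there and 1 was called higher, and of the 100 largest 1 and 12. Rises shared by both included Krt6a, at 3.29, 2.504 and 2.21 CPM in basal and 61.3, 194 and 26.3 CPM in KCl cultures of the maturation experiment (5.13 ± 0.55), Inhba (2.68 ± 0.61), Acan (2.45 ± 0.44), Tnc (2.36 ± 0.62), Cartpt, which encodes the peptide CART (1.89 ± 0.37 there and 1.70 ± 0.26 here), Gadd45g (1.87 ± 0.34) and Fndc9 (1.85 ± 0.41). Crct1, Tmem154 and the protease inhibitor gene Serpinb2 rose in both from near the floor, Serpinb2 from 0, 0.745 and 0 CPM to 11.4 and 15.9 CPM here. Fosb (1.49 ± 0.37), Fos (1.34 ± 0.29), Npas4 (1.09 ± 0.30) and Ptgs2 (1.32 ± 0.36) were higher in both as well. The AP-1 list had 7 rises of 8 tested there, among them Jun (1.55 ± 0.23), which was not called here. The late-response list had 8 rises and no fall of 19 tested there and the synaptic effectors 3 rises and no fall of 17. Some lists with rises and no fall here had no rise there, with 5 falls of 37 potassium channel and pump genes (median -0.40), 1 fall of 8 EGR and NR4A genes (median 0.31) and no call among 15 MAP kinase feedback inhibitors (median 0.41). Calcium and CREB signalling genes gave 1 rise and 6 falls of 35 there (median -0.28), and glutamate and GABA receptor genes 1 rise and 7 falls of 29 (median -0.45). Of 35 autophagy genes 1 fell there (median 0.01). The differences between these counts were not tested.

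Falls in both were small. They were 10 of 317 stimuli falls, a share near that of all genes called lower there, 350 of 11285. The 10 genes were the kinase gene Cdkl2 (-0.98 ± 0.19 here, -0.91 ± 0.20 there), Pdcd4 (-0.83 ± 0.16 and -0.65 ± 0.19), Klhl24 (-0.80 ± 0.17 and -0.71 ± 0.18), Crbn (-0.77 ± 0.17 and -0.68 ± 0.21), Pkia, an inhibitor of protein kinase A (-0.69 ± 0.19 and -0.67 ± 0.13), the clock gene Nr1d2, the autophagy kinase gene Ulk2, and Vps50, Synm and D430019H16Rik. Of these Synm was called in none of the 5 fits without a library in the stimuli experiment, Vps50 in 1, and Pkia and D430019H16Rik in 2. Cdkl2, Pdcd4 and Klhl24 did not overlap between groups in the stimuli experiment, as the example of Cdkl2 shows with 108.7, 80.8 and 89.1 CPM against 42.3 and 51.8 CPM.

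The difference of the responses was tested as an interaction over all 55 samples, a test added after the values had been seen. It was past the threshold in 984 of 12578 genes (7.82%), in 344 of the 846 stimuli calls and in 2 of the 73 called in the same direction. For the 60 genes called in opposite directions a difference follows from how they were chosen. All 60 were past the threshold and are included in the 984 and the 344. The 846 were chosen by the stimuli contrast that enters the test, and the 73 by calls in the same direction. Neither share therefore measures how often the responses differ. Without stimuli KCl replicate 2 the count of 984 became 330, and without maturation basal replicates 1 and 2 it became 1485 and 607. The exceptions among the 73 were Arc, which rose by 1.18 ± 0.32 in the maturation experiment (difference 2.38 ± 0.41), and Nptx2, with 1.39 ± 0.26 there (difference 1.37 ± 0.37). In both genes the rise was the larger one in the stimuli experiment. Egr3 was called lower there, from 23.2, 46.3 and 46.3 CPM to 17.1, 19.3 and 15.8 CPM there (-1.15 ± 0.34). The age label, depth and library letter differ between the experiments together, and their parts cannot be told apart. Summed astrocyte markers were 4775 to 5772 CPM in the basal and 4425 to 4898 CPM in the KCl cultures of the maturation experiment, ranges that overlapped. Oligodendrocyte precursor markers were lower after KCl there, at 1874 to 2057 CPM against 2371 to 3079 CPM, and so were neuron markers, at 5679 to 6123 CPM against 6299 to 7070 CPM, with no overlap in either. Their part in the differences between the experiments was not tested.

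**Figure D4:**
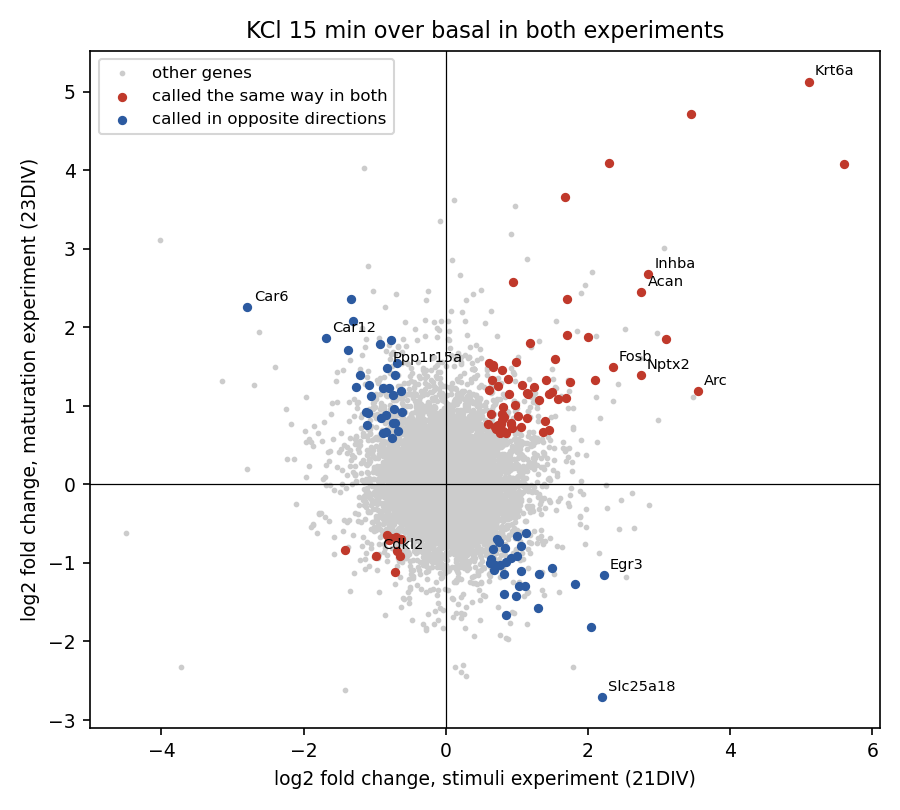
Log2 fold change at 15 min of KCl over basal in the stimuli experiment (horizontal, 21DIV) and in the maturation experiment (vertical, 23DIV) for the 11285 genes tested in both, with genes called in the same direction in red and in opposite directions in blue. Krt6a lies far in the upper right at 5.11 and 5.13, and Car6 in the upper left at -2.79 and 2.25.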

How the data were processed

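The study counted 3′ ends of polyadenylated RNA with CEL-Seq2 libraries made from RNeasy-extracted RNA. The deposited counts are whole numbers per RefSeq transcript. The authors aligned the reads to mm10 with STAR and counted them with ESAT, and versions and the collapse of molecular identifiers are not given in the sources used here. Transcripts were matched to RefSeq genes (80.9% matched), and a gene took the counts of the transcript with the most counts, the sum over transcripts being an alternative. Genes over 5 CPM in at least 2 samples were kept. All 27 samples of the stimuli experiment entered 1 fit with a term per group (TMM scaling, edgeR 4.0.16 quasi-likelihood test in R 4.3.3, 16 residual degrees of freedom), with Benjamini-Hochberg adjustment over all genes tested, and calls needed an adjusted p below 0.05 and 1.5-fold. The maturation experiment was fitted in the same way over its 28 samples (11742 genes), and the interaction over all 55. A log2 fold change is edgeR's, with its SE, and CPM of single genes are on TMM-scaled library sizes. Summed levels of marker genes are CPM on the plain total of counts on genes, without TMM scaling. No sample column was left out (0 unused).

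The 12 largest rises and 10 largest falls were named if both groups were apart and the average level was 3 or more in log2 CPM, as were up to 4 called members and 2 abundant uncalled members of each list, the 4 largest each way in each direct comparison, and the 10 largest each way in both experiments, and members beyond these were named after their values were seen. The KCl 15 min group and the 17 gene lists were chosen with earlier results of these data known, and 4 further lists and the interaction test were added after seeing the values. Alternatives were the likelihood ratio test, DESeq2 1.42.0, RLE size factors, filters on low counts, thinning to the smallest library, a replicate block, summed transcripts, the library code letter, a fit on the compared groups only, and leaving out each library. Basal and KCl samples share numbers 1 and 2 only, and deviations of same-numbered samples from their group means correlated at -0.08 and -0.01, so the numbers were not taken to pair the samples. The fit was tested on simulated counts with known changes. Some list members are counted but not reported here by name. Promoters and gene positions are from RefSeq (GRCm38.p6). Tables and figures used Python 3.11.15, pandas 2.3.3, NumPy 2.4.6, SciPy 1.17.1 and matplotlib 3.10.9.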

Additional observations from a re-analysis of the deposited data

Results flagged for a closer look

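Several genes named above were called in opposite directions after the same stimulus in the 2 experiments. The size of the difference is a description, since it follows from how these genes were chosen. The values below are the log2 fold change at 21DIV in the stimuli experiment minus that at 23DIV in the maturation experiment. Both ages are labels, and the exact age under the label 21DIV is not given.

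Egr3, an IEG transcription factor, differed by 3.40 ± 0.48 (SE), having risen at 21DIV (2.22) and fallen at 23DIV (-1.15). The potassium channel gene Kcnh3 differed by 2.34 ± 0.39, the NMDA receptor gene Grin3a by 2.23 ± 0.30 and the nuclear calcium kinase gene Camk4 by 1.79 ± 0.24, all higher at 21DIV and lower at 23DIV. Among glial markers Slc25a18 differed by 4.91 ± 0.93 and Olig1 by 1.86 ± 0.29, in the same sense. Both carbonic anhydrase genes went the opposite way, Car6 by -5.04 ± 0.90 and Car12 by -3.52 ± 0.56. Car12 stood at 37.7, 11.4 and 20.1 CPM in basal and 72.5, 58.2 and 121 CPM in KCl cultures at 23DIV, against 76.5, 70.0 and 88.4 CPM and 32.5 and 17.2 CPM at 21DIV. The stress gene Ppp1r15a (-2.30 ± 0.31) and Ndrg1 (-2.58 ± 0.34) also fell at 21DIV and rose at 23DIV. Egr3, Kcnh3, Grin3a and Camk4 kept their direction at 21DIV in every alternative that tested them. The same is not given here for their falls at 23DIV. The count of 729 calls at 23DIV became 287 to 1100 without 1 library. Slc25a18 and Ppp1r15a were called at 21DIV in 2 of the 5 fits without a library.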

How the results depend on the processing

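No named gene changed sign where it was called either in the main analysis or in the alternative, whereas some uncalled ones did, such as Btg2 (-0.10, and 0.04 without basal replicate 5). Of the 869 calls at most 1 had the opposite sign in any alternative. The count of 869 genes called at 15 min of KCl was 532 with counts thinned to the smallest library, 575 with counts summed over transcripts, 567 with a replicate block and 361 to 899 without 1 library, and it stayed within 1.5-fold in the other 7 alternatives. In the replicate block 534 of the 869 were called, but the samples share only a number, so calls lost there are no measure of the effect. Against bicuculline the count of 0 became 7 by the likelihood ratio test, 1 by DESeq2, 20 with no filter on low counts, 1 in a fit on the compared groups only and 0 to 1 without 1 library. Against 45 min the count of 50 became 103 by the likelihood ratio test, 90 with no filter, 32 thinned, 8 summed, 156 on the compared groups only and 6 to 35 without 1 library. Against 180 min the count of 446 became 291 thinned, 289 summed, 157 with the library code letter (chosen after seeing the data) and 119 to 188 without 1 library. In the maturation experiment the count of 729 (376 higher, 353 lower) became 478 summed (216 higher, 262 lower), 467 on the compared groups only and 287 to 1100 without 1 library, and falls outnumbered rises without 5 of its 6 libraries. The interaction count of 984 became 573 thinned and 330 to 1485 without 1 library. The share of calls made in both experiments, 8.63%, became 11.1% with no filter, 6.42% on the compared groups only and 3.67% to 16.7% without 1 library, the lowest without maturation basal replicate 2 and the highest without KCl 15 min replicate 2. As a share of the maturation list, 10.2% became 13.1% on the compared groups only and 5.84% to 11.4% without 1 library. The median span of the rises was 26.6 to 39.5 kb without 1 library, and that of the falls was 18.02 kb thinned and 19.3 to 23.9 kb without 1 library. The cause of these shifts was not tested, except that thinning lowers the counts and leaving out a library the samples. Of 185 named genes 30 lost and 3 gained a call with the library letter as a term, and 42 of 184 lost theirs without KCl 15 min replicate 2. The number of called members moved by more than 1.5-fold in 12 of 21 gene lists with the library letter, in 13 without KCl 15 min replicate 2, and in 7 with counts summed over transcripts, without KCl 15 min replicate 1 or without basal replicate 1. It moved in none for the likelihood ratio test, RLE size factors, no filter or a fit on the compared groups only.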
